A study of Mus musculus with 2 samples.

Results

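Elastic fibers give arteries their recoil, and 10 genes that encode their parts and their cross-linking enzymes were followed in mouse mesenteric arteries, the resistance arteries that feed the intestine. The genes were Eln, Fbn1, Fbln1, Fbln2, Fbln5, Mfap4, Mfap5, Emilin1, Lox and Loxl1, chosen by name, and all 10 were found by Ensembl identifier among the 55573 genes listed. RNA-seq was carried out on 1 library of control arteries (5 mM K+) and 1 library of depolarized arteries (60 mM K+), with 60 min given for both solutions. Both libraries came from wild type C57BL/6 mice aged 10 weeks, and each pooled tissue from 2 mice. The study made this comparison to find genes that depolarization of the arterial wall induces. It was part of work on excitation–transcription coupling, the route by which Ca2+ entry alters gene transcription. Neither library had a blocker of that route, so its part in any difference here was not tested. Per the study's methods, all solutions contained tetrodotoxin, a blocker of nerve activity, small branches of the mesenteric tree were used and connective tissue was removed before freezing. Its supplement has the control taken from the distal side of ligated arteries ahead of perfusion of the rest with 60 mM K+, whereas the labels give both solutions the same time. If the supplement holds for these libraries, segment and time in solution cannot be told apart from K+.

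An elastic fiber has an elastin core, made from the soluble precursor tropoelastin (Eln), and a sheath of microfibrils whose backbone is fibrillin-1 (Fbn1). Fibulins and microfibril-associated proteins join the core to the sheath, and lysyl oxidases, which are copper enzymes, oxidize lysine residues so that elastin and collagen become cross-linked. In arteries, smooth muscle cells and fibroblasts make most of these proteins, and elastin itself is very long-lived once deposited.

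Gene counts summed to 10480918 reads for control and 11289598 reads for depolarized arteries, and every one of the 10 genes had at least 973 reads in control arteries. FPKM, the reads scaled by gene length and by the total reads of the library, was used to compare levels between genes. Differences between the libraries are given as log2(fold-change) of 60 mM K+ over 5 mM K+ after the counts were scaled by edgeR's TMM factors, which assume that most genes do not differ. Each comes with a 95% exact (Clopper-Pearson) interval that covers counting error only. With 1 library per condition, no difference has a replicate check and the error between animals is unknown, so that p-values for the conditions are not given. In whole arteries, fewer cells of a type and less RNA per cell cannot be told apart. The smooth muscle gene Acta2 had 12480 FPKM in control and 12366 FPKM in depolarized arteries, and Myh11 had 2807 and 2510 FPKM, so that the smooth muscle of an artery was well represented in both. Of 8 mesothelial markers, 6 were at 0 reads in both libraries, where a count of 0 allows a level of up to 3 reads in a library.

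The elastin gene dominated the group, Fbn1 had the lowest level per length, and depolarized arteries had lower Fbn1 and higher Lox transcript levels than control arteries. Fbn1 was at 51.1% of its control value, a log2(fold-change) of -0.97, Eln was at 83.4%, and Lox was 1.42-fold higher. The other 7 genes lay between a log2(fold-change) of -0.18 and 0.26. The median over the 10 genes was -0.01, and it was -0.0047 over the 14829 genes whose reads in the 2 libraries summed to at least 10. Scaling by total reads in place of TMM lowers every log2(fold-change) by 0.21, so that genes and medians given below between 0 and that shift lie under 0 on that scale.

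The sequence of the Fbn1 promoter is shown because Fbn1 had the largest difference of the 10 genes. RefSeq promoter windows on GRCm38.p6, from 250 bases before to 50 bases after a transcription start, were matched for 5 of the 10 genes, in 7 windows. The 250 bases before the start of Fbn1 lie at chr2:125506439-125506688 on the minus strand, and the capitals mark GGGCGG, the core of the GC box.
Fbn1: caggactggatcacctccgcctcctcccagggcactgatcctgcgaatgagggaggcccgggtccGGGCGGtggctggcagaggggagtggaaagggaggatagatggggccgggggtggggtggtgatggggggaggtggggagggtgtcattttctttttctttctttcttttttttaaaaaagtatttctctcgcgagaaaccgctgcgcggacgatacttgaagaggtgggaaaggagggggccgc
GGGCGG, searched on both strands, was present in 4 of the 7 windows (Fbln1, Fbln2, Fbln5 and Fbn1) and in 35.7% of all 32851 windows. The cAMP response element bound by CREB was searched because CREB is the transcription factor that the study followed. The full element TGACGTCA was in 0 of the 7 windows and in 1.79% of all windows. Its shorter form TGACG, which lies within the full element, was in 2 windows, both of Fbln5, and in 20.8% of all windows. They lie at chr12:101819120-101819140 and chr12:101818512-101818541 on the minus strand, with the element in capitals and in reverse complement in the second.
Fbln5, first window: agccccgcgctcTGACGggct
Fbln5, second window: tttttctaacagCGTCAggagtcagcatct
The AP-1 element TGANTCA (0 of 7 windows, 7.81% of all) and the serum response factor CArG box (0 of 7, 1.63% of all) were not matched in these windows. These matches describe letters in short windows, and the genes of the 10 without a matched window were not searched for any element. Fbln5, with the shorter element, had a log2(fold-change) of -0.04.

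Elastin was among the most abundant transcripts of the artery. Eln (ENSMUSG00000029675, chromosome 5, 135179651 to 135223111 on mm9, minus strand; all gene positions here are on mm9) had 55056 reads in control and 42783 reads in depolarized arteries, which is 0.525% and 0.379% of all reads. By FPKM it ranked 28 among all genes in the control library, at 1914 FPKM, and 47 in the depolarized library, at 1381 FPKM. Eln took 62.4% of the reads of the 10 genes in control and 57.6% in depolarized arteries. On the log2 scale the fold-change of Eln was -0.26, with a counting interval of -0.28 to -0.24. With the reads of the 10 genes summed, log2(fold-change) was -0.15, and without Eln the other 9 genes had 33188 and 31526 reads, for a log2(fold-change) of 0.03. The sum was lower mainly through Eln, the gene with the most reads.

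**Figure D1:**
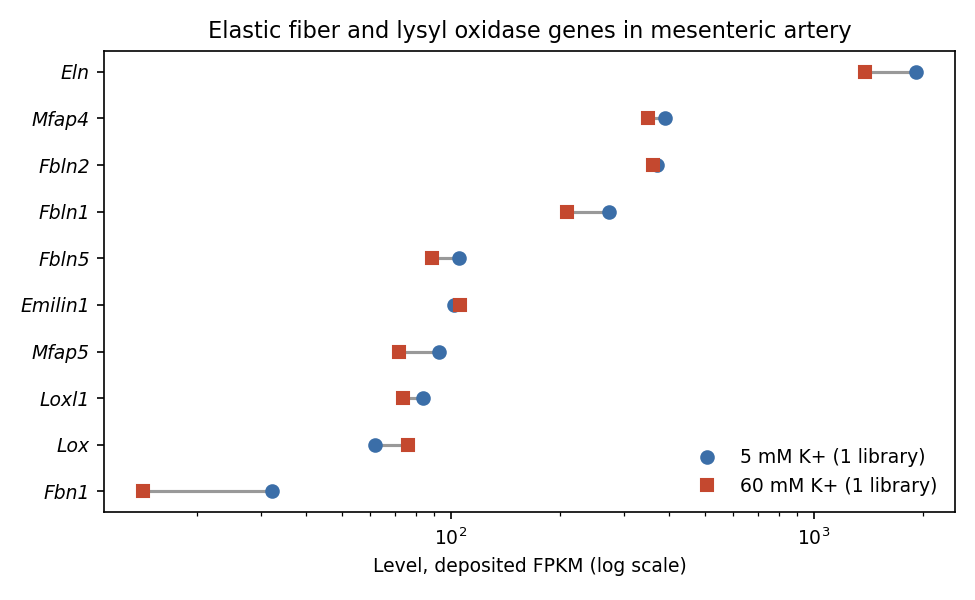
Level of each of the 10 genes in deposited FPKM on a log axis, with 1 circle for the control library (5 mM K+) and 1 square for the depolarized library (60 mM K+). Eln lies far to the right at 1914 and 1381 FPKM, Fbn1 farthest to the left at 32.1 and 14.2, and only Lox and Emilin1 lie to the right of their control value on this scale of total reads.

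Fibrillin-1 had the lowest level per length and the largest difference. Fbn1 (ENSMUSG00000027204, chromosome 2, 125126330 to 125333729, minus strand), which is mutated in Marfan syndrome, had 2660 reads in control and 1267 reads in depolarized arteries, and 32.1 and 14.2 FPKM. Fbn1 thus had a log2(fold-change) of -0.97, with a counting interval of -1.07 to -0.87. Among the 4096 genes with 1000 or more reads over the 2 libraries, 4 genes had a lower log2(fold-change) than Fbn1. The annotated gene Gm9913 overlaps Fbn1 on the other strand, with 2 and 4 reads.

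Whether Fbn1 passed the study's thresholds in a rebuilt test turned on the scaling of the libraries. To pass, a gene needs an adjusted value (q) below 0.005 together with a log2(fold-change) beyond 1 in either direction. The study names the package DEGSeq but not the model used within it, and the random-sampling model was chosen here, so that calls of this rebuilt rule are not the study's own list. The rule compares these 2 libraries and not the conditions. With TMM, 0 of the 10 genes passed in either direction, where 3.14% of all 14829 genes passed as higher and 1.81% as lower. Likewise, 0 of the 10 lay beyond an absolute log2(fold-change) of 1 on either side, against 5.54% of all genes above and 5.86% below. Of the 4096 genes with 1000 or more reads, 3.59% passed as higher and 0.0732% as lower, by the rebuilt rule and by the fold alone. With upper-quartile scaling Fbn1 was at -1.01 and passed as lower, and with total counts it was at -1.18 and also passed. Fbn1 was thus lower under each of these scalings, and only its side of the fold threshold differed.

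Among the 10 genes, the other microfibril genes did not share the size of that difference. Outside the 10, the microfibril gene Mfap2, with 243 and 131 reads, came near it at -0.79 (interval -1.11 to -0.48). Mfap5 (chromosome 6, 122455863 to 122479308), whose product MAGP-2 binds fibrillins, had 973 and 815 reads and 92.6 and 72.0 FPKM. Its log2(fold-change) was -0.15, with a counting interval from -0.29 to -0.02, the widest of the 10 and close to 0 at its upper end. Mfap4 (chromosome 11, 61298933 to 61302402), a fibrinogen-related protein of the microfibril sheath, had 4885 and 4708 reads and 390 and 349 FPKM. Its log2(fold-change) of 0.05 could not be told from 0 by counting (interval -0.01 to 0.11). Mfap4 overlaps Mapk7 on the other strand, which had 215 and 136 reads, and since no source says that strand was used in counting, a small part of these values is uncertain. Emilin1 (chromosome 5, 31215775 to 31223651), a glycoprotein at the border of core and sheath, had 2964 and 3309 reads and 102 and 106 FPKM. With TMM, Emilin1 was higher in depolarized arteries, at 0.26 (interval 0.19 to 0.33), and with total counts it was at 0.05, with an interval that held 0.

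Proportions between genes of 1 library do not depend on the scaling, and those of the sheath genes differed between the libraries. The FPKM ratio of Mfap4 to Fbn1 was 12.2 in control and 24.6 in depolarized arteries, and that of Mfap5 to Fbn1 was 2.89 and 5.08. The ratio of Eln to Fbn1 was 59.7 and 97.4. As a difference of log2(fold-change), Mfap4 exceeded Fbn1 by 1.02 (95% exact conditional interval 0.90 to 1.13) and Eln exceeded Fbn1 by 0.71 (0.61 to 0.81).

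The 3 fibulins, calcium-binding glycoproteins that bridge tropoelastin and other matrix proteins, differed among themselves. Fbln1 (chromosome 15, 85036379 to 85116965), found within the elastic core, had 6053 and 4988 reads and 274 and 209 FPKM, a log2(fold-change) of -0.18 (interval -0.23 to -0.12). Fbln2 (chromosome 6, 91162449 to 91222534), which is found at the internal elastic lamina, had 6110 and 6408 reads and 369 and 360 FPKM. With TMM the log2(fold-change) of Fbln2 was 0.17 (interval 0.12 to 0.22), and with total counts it was -0.04, with an interval that held 0. Fbln5 (chromosome 12, 102984775 to 103057265), which is needed for elastic fiber assembly and binds tropoelastin, had 3681 and 3339 reads and 105 and 88.8 FPKM. The log2(fold-change) of Fbln5 was -0.04, with an interval that held 0 (-0.11 to 0.03). Free of scaling, Fbln2 exceeded Fbln1 by 0.35 in log2(fold-change) (interval 0.27 to 0.42), and their FPKM ratio was 1.35 in control and 1.72 in depolarized arteries.

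Of the cross-linking enzymes, Lox was higher in depolarized arteries on both scales, and its relative Loxl1 was close to its control value with TMM. Lox, the founding lysyl oxidase, had 2976 and 3949 reads and 61.7 and 76.0 FPKM. The log2(fold-change) of Lox was 0.51 (interval 0.44 to 0.58) with TMM and 0.30 with total counts. Loxl1 (chromosome 9, 58135530 to 58161019), a lysyl oxidase directed to elastic fibers, had 2886 and 2743 reads and 83.5 and 73.7 FPKM. The log2(fold-change) of Loxl1 was 0.03, with an interval that held 0 (-0.05 to 0.10), and it was -0.18 with total counts. Per length, Loxl1 lay above Lox in control arteries and below it in depolarized arteries, with FPKM ratios of 1.35 and 0.970. Lox exceeded Loxl1 by 0.48 in log2(fold-change) (interval 0.38 to 0.58). The FPKM ratio of substrate to enzyme, Eln to Lox, was 31.0 in control and 18.2 in depolarized arteries, and Lox exceeded Eln by 0.77 in log2(fold-change) (interval 0.70 to 0.84).

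**Figure D2:**
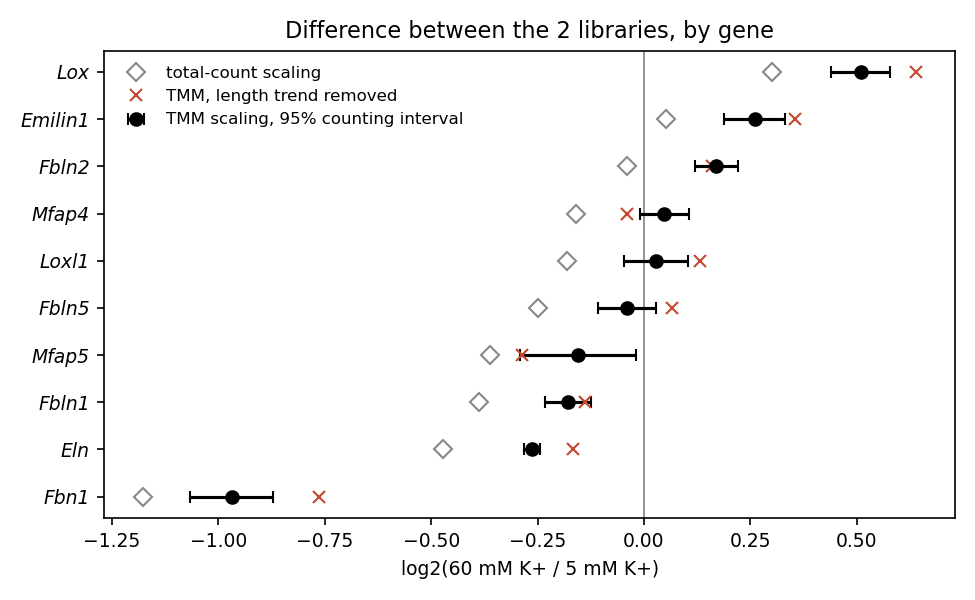
log2(fold-change) of 60 mM K+ over 5 mM K+ for each gene, with black points and bars for TMM scaling and its 95% counting interval, diamonds for total-count scaling and crosses for TMM after removal of the trend with gene length. Fbn1 lies at -0.97 and stays the lowest under all 3, Lox lies at 0.51 and stays the highest, and Fbln2, at 0.17, lies on the other side of 0 at -0.04 with total counts.

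By FPKM, control arteries had the order Eln, Mfap4, Fbln2, Fbln1, Fbln5, Emilin1, Mfap5, Loxl1, Lox and Fbn1 from high to low. In depolarized arteries the order was Eln, Fbln2, Mfap4, Fbln1, Emilin1, Fbln5, Lox, Loxl1, Mfap5 and Fbn1, with Eln and Fbn1 at the same ends and Lox above both Loxl1 and Mfap5.

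Ordered by log2(fold-change) from high to low, the genes were Lox, Emilin1, Fbln2, Mfap4, Loxl1, Fbln5, Mfap5, Fbln1, Eln and Fbn1. From Mfap4 down to Fbln1, 4 neighboring pairs could not be told apart by counting: Mfap4 and Loxl1 differed by 0.02, Loxl1 and Fbln5 by 0.07, Fbln5 and Mfap5 by 0.11, and Mfap5 and Fbln1 by 0.02, with intervals that held 0. At the ends, Lox exceeded Emilin1 by 0.25 (interval 0.15 to 0.35). Over all 45 pairs of genes, 39 had an interval that excluded 0. This order does not depend on the scaling of the libraries, and it carries counting error only.

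Read against all genes, the number of the 10 that differed was not large. The counting interval lay above 0 for 3 genes (Lox, Emilin1 and Fbln2), against 25.0% of all 14829 genes, and below 0 for 4 genes (Fbn1, Eln, Fbln1 and Mfap5), against 20.3%. Among the 4096 genes with at least 1000 reads, to which all 10 belong, these shares were 50.7% and 20.2%. Past an absolute log2(fold-change) of 0.5 there was 1 gene higher, Lox, against 14.8% of all genes and 14.2% of those with at least 1000 reads. Fbn1 was the 1 gene lower, against 15.9% and 2.0%. With median-of-ratios scaling Lox was at 0.497 and with upper-quartile scaling at 0.47, both under this limit. Well-read genes leaned upward, with 2671 of 4096 above 0 and a median log2(fold-change) of 0.13, and 5 of the 10 genes lay above 0.

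**Figure D3:**
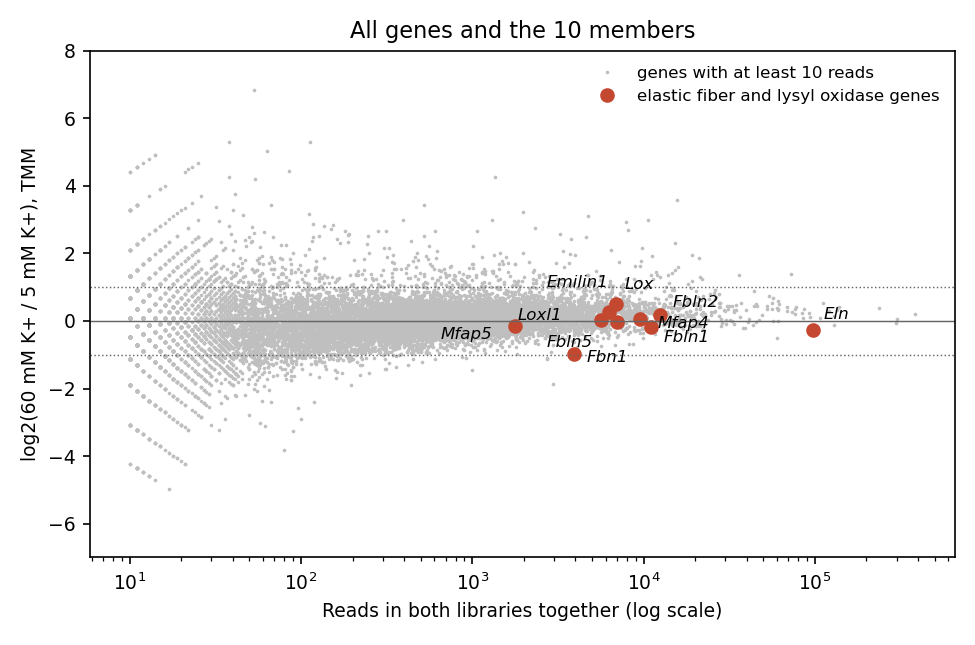
log2(fold-change) with TMM scaling against the reads of both libraries together on a log axis, for genes with at least 10 reads (gray, with a count of 0 set to 0.5) and the 10 genes (red), with dotted lines at -1 and 1. Fbn1, at -0.97, lies at the lower edge of the genes with as many reads, and the other 9 lie within the cloud.

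Long genes had lower values in the depolarized library, and Fbn1 is the longest of the 10. The gene length behind its FPKM is 7.92 kb, compared with 2.74 kb for Eln, 4.61 kb for Lox and 1.00 kb for Mfap5, the shortest. A smooth trend of log2(fold-change) with length was -0.21 at the length of Fbn1 and 0.13 at that of Mfap5. With that trend removed, log2(fold-change) was -0.76 for Fbn1, 0.64 for Lox, -0.17 for Eln and -0.29 for Mfap5. Among 41 genes with at least 1000 reads and a length within 1.25-fold of that of Fbn1, Fbn1 included, the median was -0.13 and Fbn1 was the lowest. Among 371 such genes around the length of Lox, 38 had a value at least as high, Lox included. Around the length of Mfap5 there were 762 such genes, with a median of 0.28. Of these, 31 had a value at least as low, Mfap5 included. The part of the length trend in these differences was not tested beyond its removal.

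**Figure D4:**
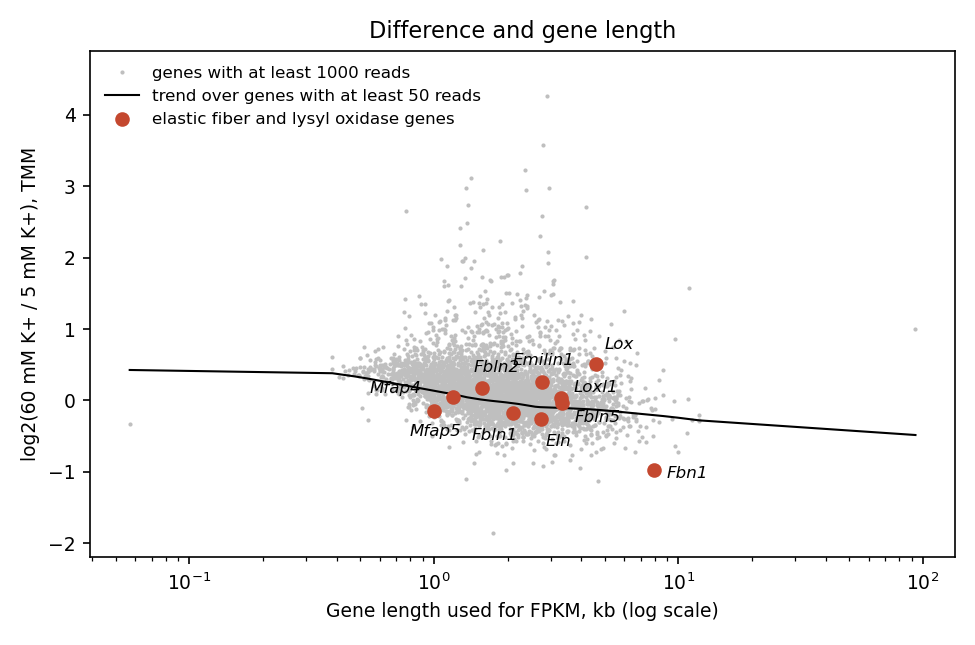
log2(fold-change) with TMM scaling against the gene length that underlies FPKM, in kb on a log axis, for genes with at least 1000 reads (gray), with the smooth trend over genes with at least 50 reads (line) and the 10 genes (red). The trend falls with length, Fbn1 at 7.92 kb lies below it and Lox at 4.61 kb lies above it.

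Relatives of the 10 genes differed in both directions, and several with few reads were lower in depolarized arteries. Of 15 relatives, 13 reached 10 reads, with a median log2(fold-change) of -0.23. The counting interval lay above 0 for 3 of them and below 0 for 4, against 25.0% and 20.3% of all 14829 genes. Efemp1, which encodes fibulin-3, had 139 and 58 reads. At a log2(fold-change) of -1.16 (interval -1.63 to -0.71), it was the 1 relative that passed the rebuilt rule. Mfap2, the gene of MAGP-1, which binds fibrillins as Mfap5 does, had 243 and 131 reads, for a log2(fold-change) of -0.79 (interval -1.11 to -0.48). The endothelial and platelet glycoprotein gene Mmrn1 was at -0.61. Mfap1b, also with few reads, had 220 and 287, for a log2(fold-change) of 0.48 (interval 0.23 to 0.74). Efemp2, the gene of fibulin-4, which binds both tropoelastin and Lox, had 915 and 1009 reads, for a log2(fold-change) of 0.24 (interval 0.11 to 0.37). The most abundant relative was Mmrn2, an endothelial matrix gene, with 142 and 158 FPKM and a log2(fold-change) of 0.37. Loxl2 had 674 and 533 reads (-0.24), Loxl3 had 488 and 472 (0.05) and Loxl4 had 83 and 55 (-0.49), and the interval excluded 0 for Loxl2 only. Fbn2, another fibrillin gene, was at 0 reads in both libraries.

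A list of genes of latent TGF-beta binding proteins, TGF-beta ligands and Tgfbi had a median near 0. Of these 8 genes, the interval lay above 0 for 3 and below 0 for 3, and the median was 0.05. Over all 14829 genes, 25.0% had an interval above 0 and 20.3% below, and among those with at least 1000 reads 50.7% and 20.2%. Ltbp4, whose product binds Fbln5 and takes part in elastic fiber assembly, was the most abundant with 634 and 750 FPKM, and its log2(fold-change) was 0.45 (interval 0.42 to 0.48). The ligand gene Tgfb1 had 763 and 1207 reads, for a log2(fold-change) of 0.76 (interval 0.63 to 0.90). Of 8 microfibril-associated ADAMTS and ADAMTSL genes, 2 had an interval above 0 and 2 below, none was beyond 0.5, and Adamts10, at 182 and 137 FPKM, was the most abundant.

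Of 20 measured genes for assembly, trafficking and copper supply, 8 had an interval above 0 and 6 below 0, with a median of 0.07. The shares with such intervals were 25.0% and 20.3% of all 14829 genes. They were 50.7% and 20.2% of genes with at least 1000 reads. Itga5, an integrin chain of the fibronectin receptor, had 4779 and 8321 reads, for a log2(fold-change) of 0.90 (interval 0.85 to 0.95). Atp7a, the copper transporter that supplies lysyl oxidases, had 107 and 65 reads and was at -0.62 (interval -1.09 to -0.16), where Lox was higher. The proteoglycan gene Bgn, at 2817 and 2583 FPKM, exceeded even Eln in level. Among 16 elastin-degrading enzymes and inhibitors, 12 were measured with a median of 0.06, 6 of them with an interval above 0 and 2 below. The 3 genes beyond 0.5 with at least 50 reads encode inhibitors, where 14.8% of all 14829 genes lay above 0.5. Other inhibitor genes, Timp2 and Timp3, were at 0.08 and 0.04, with 377 and 359 FPKM in control arteries. Of the enzyme genes, Ctsl and Ctsb were both at 0.27 and Mmp2 was at -0.10. Timp1, an inhibitor of metalloproteinases, had 152 and 369 reads, for a log2(fold-change) of 1.38 (interval 1.10 to 1.66). It passed the rebuilt rule. Serpina3n, a serine protease inhibitor, was at 0.72 and Cst3, an inhibitor of cysteine cathepsins and the most abundant gene of that list, was at 0.51. The macrophage and neutrophil elastase genes Mmp12 and Elane were at 0 reads in both libraries, as was Mmp7.

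Markers of cell types differed between the libraries as well. For comparison, the counting interval lay above 0 for 25.0% of all 14829 genes and below 0 for 20.3%. Among genes with at least 1000 reads, these shares were 50.7% and 20.2%. Fibroblast markers, from cells that make elastic fiber proteins, had a median of -0.12, with 7 of 11 intervals below 0 and 3 above 0 and summed levels of 8041 and 6625 FPKM, of which Gsn was the largest. They ranged from -0.43 to 0.62, the value of Ly6a. Smooth muscle markers had a median of 0.06, with 8 of 11 intervals above 0 and 3 below and summed levels of 22093 and 21679 FPKM; Myocd, a cofactor that drives smooth muscle genes, was at -0.53. Endothelial markers had a median of 0.38, with 7 of 8 intervals above 0 and summed levels of 1504 and 1778 FPKM. Pecam1, with 752 and 921 FPKM, had a log2(fold-change) of 0.50. Cdh5, which joins endothelial cells, was at 0.83, while Kdr, a receptor for VEGF, was at -1.10. Adipocyte markers had a median of -0.90 over 7 genes, with 5 intervals below 0 and 1 above 0, and summed levels of 139 and 73.9 FPKM. Fabp4, a fatty acid carrier and the adipocyte marker with the most reads, had 1060 and 951 reads and was at -0.06, with an interval that held 0. Plin1, which coats lipid droplets, had 101 and 18 reads, and Cfd, the gene of adipsin, had 607 and 270 reads. The 1 marker above 0 was Lep, the leptin gene, with 1 and 9 reads. Fabp4 and Lep were named after their values were seen. Medians were -0.20 for 8 macrophage markers (38.3 and 29.5 FPKM in sum), -0.10 for 6 Schwann cell markers (101 and 79.3 FPKM), -0.27 for 4 lymphatic endothelial markers (39.8 and 37.3 FPKM), -0.64 for 5 red blood cell markers (166 and 91.8 FPKM) and 3.32 for 6 pancreatic acinar markers (10.9 and 41.1 FPKM). Lyve1, a lymphatic marker that some macrophages share, was at -1.13, while Pdpn, another lymphatic marker, was at 0.85. The pancreatic lipase gene Pnlip had 2 reads in control and 61 in depolarized arteries. The part of these cell types in the values of the elastic fiber genes was not tested.

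**Figure D5:**
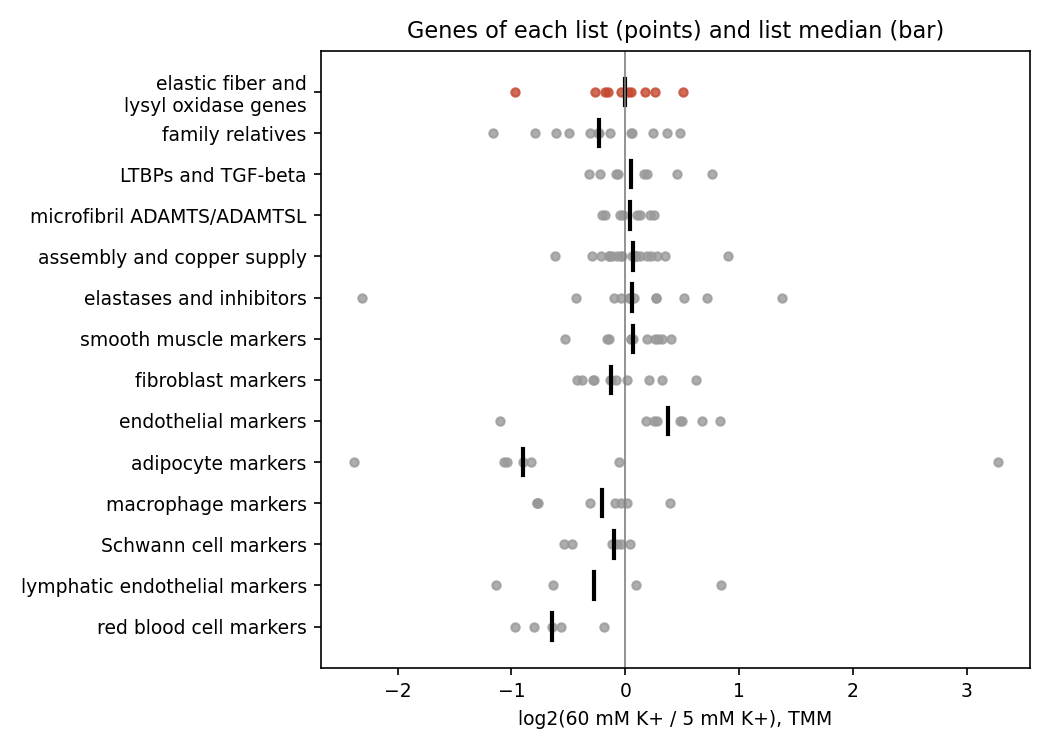
log2(fold-change) with TMM scaling for each gene of the lists with at least 10 reads, 1 point per gene, with a bar at the list median. The 10 elastic fiber and lysyl oxidase genes (red) center on 0 between Fbn1 at -0.97 and Lox at 0.51. Mesothelial markers, with too few reads, and pancreatic acinar markers, with a median of 3.32, are not drawn.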

How the data were processed

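TopHat2 alignments to mm9 are the basis of the raw counts per gene and the FPKM values that the authors deposited; the submitters' processing notes list TopHat2 2.0.12, HTSeq 0.6.1 and edgeR 3.0.8. The gene annotation is not given in the sources used here, and 32601 of the 55573 listed genes are in GENCODE vM1 (mm9), from which names and positions were taken. Reads per FPKM differed between the libraries by the ratio of total reads (1.08) for every one of 8921 genes compared, so that FPKM carries total-count scaling. Gene lengths were recovered from reads and FPKM.

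edgeR 4.0.16 (R 4.3.3) gave TMM factors of 1.07 for control and 0.930 for depolarized arteries. The study names DEGSeq without a model; the random-sampling model of that package was rebuilt here from its formula, with Benjamini-Hochberg adjustment over 14829 genes with at least 10 reads, because edgeR's quasi-likelihood fit needs replicates. A count of 0 was set to 0.5. Pairs of genes were compared by the exact conditional odds ratio (scipy 1.17.1). Tested on simulated data for this comparison (14829 genes), the random-sampling test recovered 200 of 200 genes changed 4-fold, all with at least 200 reads and counting error only. Genes named outside the 10 were mostly relatives, the most abundant gene of a list, and genes beyond 0.5 with at least 50 reads. Of the latter, at most the 3 highest and 3 lowest per list were named. Not every gene that met these terms was named. Others, Timp2, Timp3, Ctsl, Ctsb and Mmp2 among them, were named after their values were seen. Ccl21a was not analysed here. Members and lists were chosen with earlier results of these data known. The alternatives were other scalings, FPKM with pseudocounts of 1 and 0.1, other minimum counts and edgeR's exact test with an assumed spread; the removal of the length trend and the minimum of 1000 reads were chosen after seeing the data.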

Additional observations from a re-analysis of the deposited data

How the results depend on the processing

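No paired analysis was possible because only 1 library per condition was sequenced. Total-count scaling lowered every log2(fold-change) by 0.21, and FPKM carries the same shift; Fbln2 then turned from 0.17 to -0.0385 with total counts, -0.0384 on FPKM (pseudocount 1) and -0.0385 at 0.1. With total counts, 1 of the 10 genes (Fbn1) passed the rebuilt rule and a fold threshold of 1 as lower, 0 were above 0.5, and the counting interval lay above 0 for 1 gene and below 0 for 7. With upper-quartile scaling Fbn1 also passed both (1 gene) and 0 genes were above 0.5, as with median-of-ratios scaling (DESeq2 1.42.0). On FPKM, 1 gene was below -1 and 0 were above 0.5. No other scaling changed the direction of Fbn1, Eln or Lox. Over all genes, the rebuilt rule (the study's thresholds on the random-sampling test rebuilt here) gave 466 higher and 269 lower genes (63.4% higher); with total counts 588 were lower (35.1% higher), and with upper-quartile scaling 56.9% were higher. With total counts, 1356 genes were above 0.5 and 3961 below -0.5 (25.5% higher, compared with 48.2%), and intervals lay above 0 for 2014 and below 0 for 5693. An assumed coefficient of variation of 0.1 in edgeR's exact test gave 74 lower genes, 0.2 gave 68 higher and 8 lower, and 0.4 gave 0 and 0. These counts depend on the assumed value, which these data cannot supply. On FPKM (pseudocount 1) there were 240 above 1, 193 below -1 and 853 above 0.5, and at 0.1 there were 497 above 1, 1269 above 0.5 and 3759 below -0.5. With at least 50 reads, 169 were lower by the rebuilt rule, 412 were above 1, 211 below -1, 1443 above 0.5 and 1261 below -0.5. With no minimum, 3081, 2491, 4657 and 5610 genes passed these 4 folds. With at least 1000 reads, 147 were higher and 3 lower by the rebuilt rule and by a fold of 1, 583 were above 0.5, 82 below -0.5, and intervals lay above 0 for 2077 and below 0 for 827. Of list medians relative to all genes, smooth muscle was 0.0221 on FPKM (pseudocount 1), and with the length trend removed latent TGF-beta binding proteins were at 0.15, smooth muscle at 0.17 and endothelial at 0.48; the cause was not tested. The other 101 comparisons of list medians moved by less than the counting interval of a typical gene of the list extends to either side. Depth limits little here for the 10 genes; the unknown spread between animals limits every difference.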
